A study of Mus musculus with 8 samples.

Results

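The 4 mouse Hox gene clusters hold the 38 Hox genes followed here: 10 in HoxA (Hoxa2 to Hoxa13), 10 in HoxB (Hoxb1 to Hoxb13), 9 in HoxC (Hoxc4 to Hoxc13) and 9 in HoxD (Hoxd1 to Hoxd13). They were followed through 4 windows of the mm8 mouse genome chosen by position alone: HoxA at chr6:51950000-52350000, HoxB at chr11:95900000-96400000, HoxC at chr15:102500000-103000000 and HoxD at chr2:74300000-74800000. Every listed peak inside these 1900 kb was a member, which gave 1571 of the 364537 peaks of the series. The peaks came from 8 chromatin immunoprecipitation sequencing libraries of bone marrow-derived macrophages, cells grown from the marrow of female Fvb mice 6 to 8 weeks old. No transgene or mutation is named in the labels, and untreated cells (0 h) stood against cells given lipopolysaccharide, a bacterial cell wall component, together with the cytokine interferon gamma. H3K4me3 and H3K27me3 were mapped at 0 and 4 h, RNA polymerase II (Pol II) at 0, 2 and 4 h, and the demethylase Jmjd3 at 2 h. Each group held 1 library, so no difference between times has a replicate check, and every comparison describes single libraries without a test. Intervals of shares below are exact Clopper-Pearson 95% intervals that cover counting error only. Those of median log2 ratios are 95% order-statistic intervals, taken from the ranked ratios. Neighbouring peaks of 1 domain are not independent, which neither kind of interval takes into account.

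Hox genes encode homeodomain transcription factors that give cells their position along the body axis, and each cluster carries its genes in the order in which they are used along that axis. Where the genes are silent, Polycomb complexes cover whole clusters with trimethylated lysine 27 of histone H3 (H3K27me3), a mark of repressed chromatin. Jmjd3 (Kdm6b) removes that mark and is known to be induced in macrophages by bacterial products. Trimethylated lysine 4 (H3K4me3) marks promoters, often also promoters that are held silent and carry both marks.

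The clusters also hold microRNA genes, and mature sequences are shown because paralogous clusters share seeds in their 5p arms. RefSeq (GRCm38.p6) places Mir196b in HoxA, Mir196a-1 and Mir10a in HoxB, Mir196a-2 and Mir615 in HoxC, and Mir10b in HoxD. The sequences are written 5′ to 3′ with the seed, bases 2 to 8, in capitals.
miR-196b-5p: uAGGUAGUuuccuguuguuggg
miR-196a-5p: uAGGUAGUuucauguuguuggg
miR-10a-5p: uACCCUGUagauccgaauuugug
miR-10b-5p: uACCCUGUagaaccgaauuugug
miR-615-3p: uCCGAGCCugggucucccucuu
The miR-196 forms of HoxA, HoxB and HoxC carried the same seed, as did the miR-10 forms of HoxB and HoxD, while miR-615-3p stood alone. The 3p arms of the miR-196 and miR-10 genes, not printed here, differed in seed from cluster to cluster. The gene table is on another build than the peaks, so no peak was given to a gene or microRNA. Peaks are named below by their mm8 position or by their distance from the start of the window.

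H3K27me3 dominated all 4 windows before stimulation. At 0 h the list held 101 positions in HoxA, 185 in HoxB, 244 in HoxC and 95 in HoxD. Per 100 kb this came to 25.25 in HoxA, 37 in HoxB, 48.8 in HoxC and 19 in HoxD, beside 2.27 over the genome. The windows thus held 11.1, 16.3, 21.5 and 8.36 times the density of the whole list, and the 4 as 1 set held 14.5 times that density. Among genome tiles of the same length on a fixed grid, 1 of 5241 held more positions than HoxC, 5 more than HoxB and 85 more than HoxD, and 53 of 6551 held more than HoxA. By summed height no tile exceeded HoxC. Height here means the deposited overlap count of a peak, a whole number that was not scaled to depth.

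After 4 h the same windows still stood at the top of the list. There were 117 positions in HoxA, 251 in HoxB, 302 in HoxC and 127 in HoxD, or 797 against 625 at 0 h. The whole list grew by more in proportion, from 59684 to 89093 positions, so the multiple of its density was 12.4 at 4 h. With the 4 h list cut by height to the length of the 0 h list the multiple was 15.1 at 4 h, above the 14.5 at 0 h, so the direction of this change depended on list length. The order of the windows by density was HoxC, HoxB, HoxA, HoxD at both times. Again 1 tile held more positions than HoxC and none had a greater summed height. HoxA and HoxD had fewer but taller positions, with a median height of 22 and 19 at 0 h against 14 in HoxB, 16 in HoxC and 12 in the whole list.

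**Figure D1:**
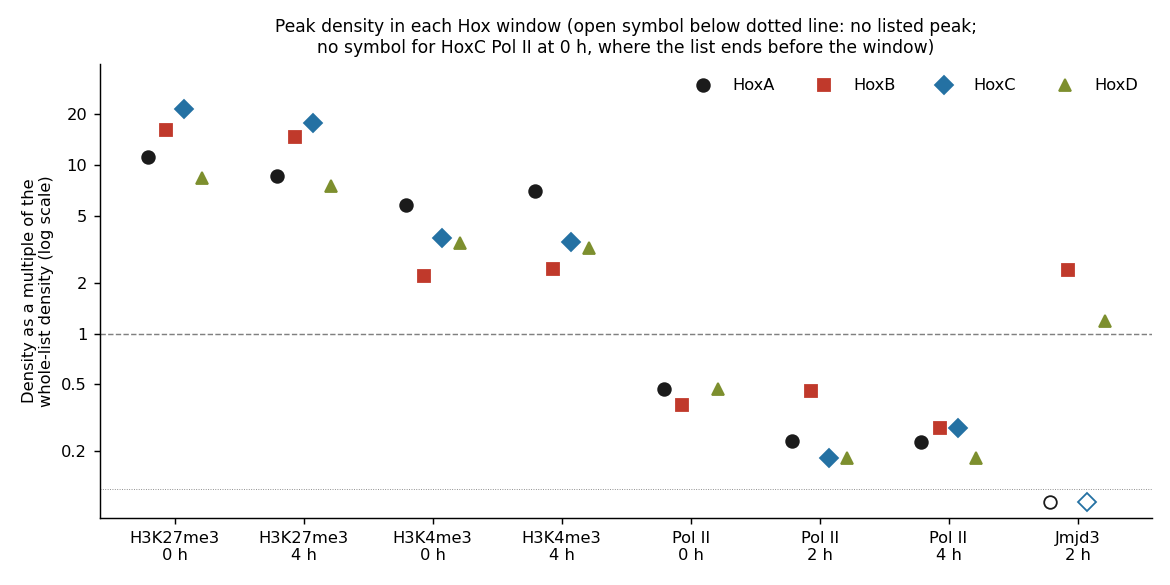
Density of listed peaks in each Hox window as a multiple of the density of the whole list (y axis, log scale), for each of the 8 libraries (x axis); each symbol is 1 window in 1 library. H3K27me3 lies at 7.49 to 21.5 times and H3K4me3 at 2.21 to 7.02 times the whole-list density, and Pol II lies below it in every window it could be read in.

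The tallest H3K27me3 positions ranked among the tallest of the list. In HoxA the position at chr6:52246249 had a height of 92 at 0 h and 105 at 4 h, and those at chr6:52155392 and chr6:52174990 went from 83 to 113 and from 81 to 108. The tallest HoxA position at 4 h had a height of 115, against 80 at 0 h. All 4 of these HoxA positions lay inside an H3K4me3 cluster of their own time. In HoxB the position at chr11:96120043 had heights of 78 and 101, the one at chr11:96099324 had 70 and 104, and the one at chr11:96169431 had 66 and 92. HoxC held the tallest Hox position at 0 h, at chr15:102765169, with a height of 100 that was 95 at 4 h. It was the only one of the 3 tallest in any window at 0 h that was lower at 4 h. The other tall HoxC positions went from 84 to 96 (chr15:102749521), from 81 to 109 (chr15:102809921) and from 67 to 98, the last at 21.1 kb, far from the main domain. HoxD held the tallest at 4 h, at chr2:74499138, with a height of 136 against 85 at 0 h, and the positions at chr2:74563996 and chr2:74483329 went from 89 to 112 and from 84 to 119. More than 97 percent of the whole list lay below each of these positions at 0 h.

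The 4 clusters differed in how the mark was laid out, and the length of a run depended on the distance that joins positions. With positions up to 1 kb apart joined, the longest runs at 0 h were short: 3.19 kb in HoxA, 3.38 kb in HoxB, 3.02 kb in HoxC and 5.18 kb in HoxD. HoxC had the shortest of these, and 128 runs of the genome were longer. At 4 h they measured 2.01 kb in HoxA, 2.94 kb in HoxB, 4.65 kb in HoxC and 3.71 kb in HoxD, shorter than at 0 h in all but HoxC. With 2 kb the longest at 0 h was in HoxC, at 50.8 kb, and none of the genome was longer. With 5 kb, an alternative that describes whole domains, HoxC formed a domain of 243 kb at 0 h, from 233.2 to 476.0 kb, with 179 of the window's 244 positions. None of the 20071 runs of the genome built this way was longer. The HoxD domain was then 124 kb long (140.4 to 264.0 kb) and held 84 of 95 positions. HoxA had a run of 76.1 kb (186.1 to 262.1 kb) with 56 of 101 positions, and a second group of tall positions lay between 285.7 and 303.0 kb. HoxB was broken into more pieces, the longest of them 65.5 kb (165.8 to 231.3 kb) with 53 of 185 positions. At 4 h the runs built with 5 kb measured 93.3 kb in HoxA, 184 kb in HoxB, 250.5 kb in HoxC and 134 kb in HoxD, all longer than at 0 h, so the direction of the change in HoxA, HoxB and HoxD turned with the distance. The HoxB run at 4 h reached from 36.8 to 220.8 kb, across a stretch from 133.5 to 151.5 kb that had held no position at 0 h. The domains named below are those built with 5 kb.

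Bins of 50 kb showed where the mark was heaviest. In HoxA the bin from 200 to 250 kb held a summed height of 1384 at 0 h and 1633 at 4 h, whereas the bin from 0 to 50 kb held 21 and 58. HoxD rose from 10 in its first bin to 1211 between 150 and 200 kb and fell back to 11 between 300 and 350 kb. HoxC reached 1235 between 300 and 350 kb and stayed above 500 to the window's end. HoxB held 818 between 150 and 200 kb and 438 between 100 and 150 kb at 0 h, but only 61 between 400 and 450 kb. In HoxB and HoxC every 50 kb bin held H3K27me3 at both times, while 1 HoxA bin and 2 HoxD bins held none at 0 h.

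**Figure D2:**
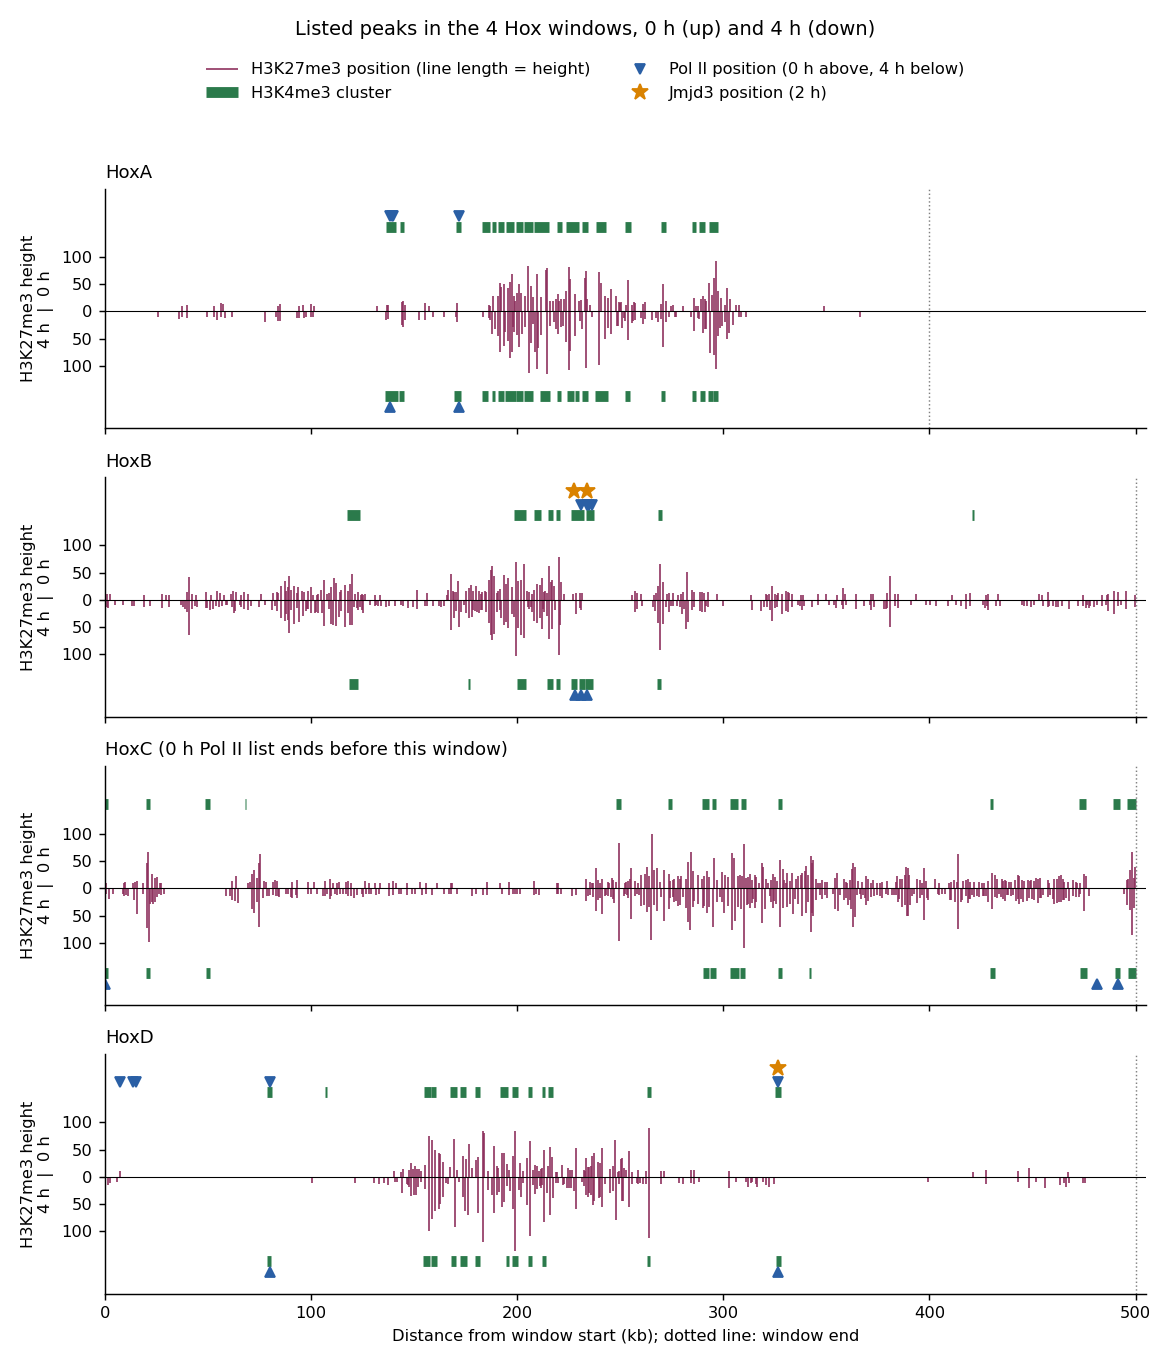
Listed peaks along each Hox window (x axis, distance from the window start in kb), with 0 h drawn upward and 4 h downward; line length is H3K27me3 height, bars are H3K4me3 clusters, triangles Pol II positions and stars Jmjd3 positions at 2 h. The tall H3K27me3 lines stand apart from the Pol II triangles, and all 3 stars sit on H3K4me3 bars.

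Most H3K27me3 positions were found again after stimulation. A position was counted as shared when the other list had one less than 500 bp away. By this measure 102 of the 625 positions at 0 h had no partner at 4 h, or 16.3% (interval 13.5 to 19.5%), against 28.3 percent over the whole list. The share was 18.8% in HoxA (19 of 101), 16.8% in HoxB (31 of 185), 14.3% in HoxC (35 of 244) and 17.9% in HoxD (17 of 95), and the intervals of the 4 windows overlapped. Of the 102, 66 had a 4 h position within 1 kb, so a listed neighbour was often near. The median height was 11 for positions without a partner and 17 for those kept. Among the 235 positions of height 20 or more, 18 had no partner, beside 8.74 percent of the 11468 such positions in the whole list. By window 7 of 58 lacked a partner in HoxA, 0 of 49 in HoxB, 7 of 84 in HoxC and 4 of 44 in HoxD.

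Within classes of 0 h height, the gap to the rest of the list was within counting error or at its edge. Of the positions with a height of 9 or 10 at 0 h, 37.7% in the windows (interval 29.3 to 46.6%, n = 130) and 45.1% elsewhere had no partner. In the class from 11 to 12 these shares were 18.5% (interval 10.8 to 28.7%) and 29.0%, and in the class from 13 to 17 they were 10.7% (interval 6.12 to 17.1%) and 16.9%. At heights of 40 and above they were 5.56% (interval 1.83 to 12.5%) and 4.68%. The median spacing of 0 h positions was 1225 bp in HoxA, 1410 bp in HoxB, 1246 bp in HoxC and 1366 bp in HoxD, so a neighbour could serve as partner. Its part in the shares was not tested.

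In the other direction 276 of the 797 positions at 4 h had no partner at 0 h, or 34.6% (interval 31.3 to 38.0%), against 51.7 percent over the whole list. These positions had a median height of 12, against 24 for the 521 with a partner. The share was 29.9% in HoxA, 38.6% in HoxB, 31.5% in HoxC and 38.6% in HoxD. The 4 h list was longer and its lowest height was 10 against 9 at 0 h, and the exact depth of both libraries is unknown. Whether the added low positions come from depth was not tested.

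Heights at the shared positions were greater at 4 h, in the windows and in the whole list alike. Of the 523 shared positions 445 were taller at 4 h, which was 85.1% beside 82.1 percent over the whole list. The lowest listed height was 9 at 0 h and 10 at 4 h, so a shared position of height 9 could only be taller. Of the shared positions, 81 in the windows and 12434 elsewhere had a 0 h height of 9 or 10. The shares of taller positions are therefore partly set by the list minimums. The median ratio of 4 h to 0 h height was 1.33 (log2 0.42, interval 0.39 to 0.45), beside 1.27 (log2 0.35) for all 42807 shared positions. By window it was 1.29 in HoxA, 1.39 in HoxB, 1.33 in HoxC and 1.33 in HoxD. Matched for 0 h height, the median log2 ratio was higher in the windows than elsewhere in every class. The medians were 0.49 and 0.42 for heights of 9 or 10, and 0.45 and 0.32 for 11 to 12. For heights 13 to 17 they were 0.46 and 0.28, for 18 to 39 they were 0.42 and 0.32, and from 40 on 0.36 and 0.33. No interval was computed for these classes. Relative to the whole-list median, 35 positions (6.69%) stood at least 1.5 times higher, beside 5.17 percent, and 15 (2.87%) at least 1.5 times lower, beside 4.65 percent. In none of the 4 windows was the median height of shared positions lower at 4 h, on a scale that is not adjusted for depth.

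**Figure D3:**
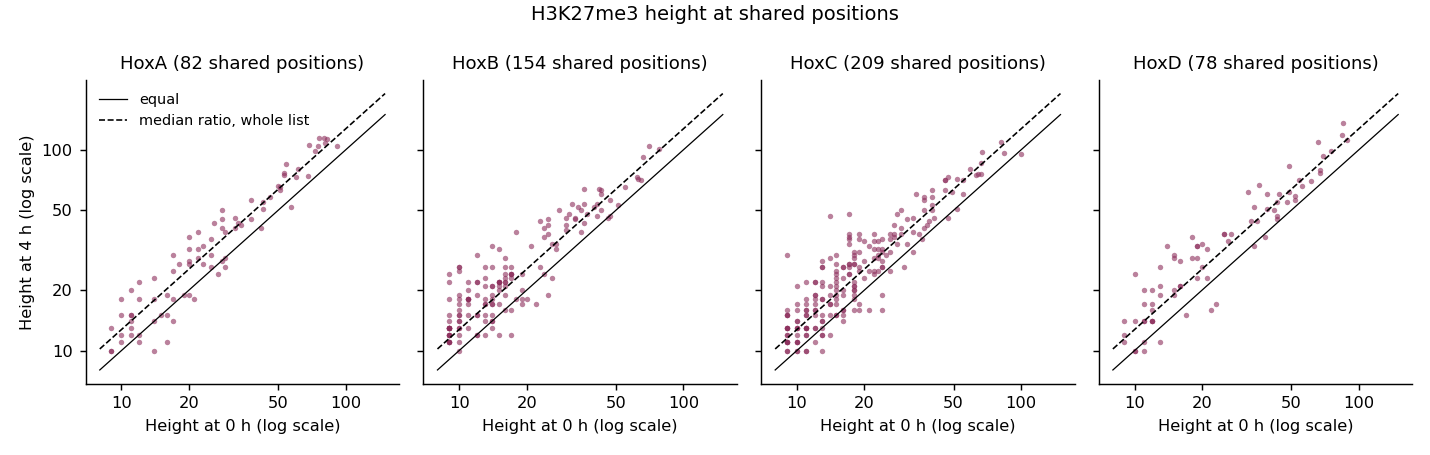
H3K27me3 height at 4 h against height at 0 h (both axes log scale) for each shared position of the 4 windows; the solid line marks equal heights and the dashed line the median ratio of 1.27 over the whole list. Points follow the dashed line in all 4 windows, and 445 of the 523 lie above equality.

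A few positions moved further. Among those of height 20 or more at either time, the 3 largest ratios were all in HoxC, from 14 to 47 at chr15:102515514, from 9 to 30 at chr15:102860187 and from 17 to 48 at chr15:102741232. The first lies 15.5 kb into the window and the last at 241.2 kb, just inside the main domain. The 3 smallest were from 24 to 16 at chr15:102931640 in HoxC, and from 22 to 16 at chr2:74521918 and from 23 to 17 at chr2:74495247 in HoxD. Heights this low carry few counts, and without replicates these are single readings.

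H3K4me3 was also dense, but low. At 0 h there were 19 clusters in HoxA, 9 in HoxB, 15 in HoxC and 14 in HoxD, and at 4 h 21, 9, 13 and 12. This was 3.68 times the whole-list density at 0 h and 3.87 times at 4 h. HoxA stood highest, at 5.82 and 7.02 times. The median height of the 57 clusters at 0 h was 22, against 78 in the whole list, and at 4 h it was 28 against 97. In each window a few tall clusters stood beside many low ones. The tallest had heights of 170 in HoxA (186 at 4 h), 156 in HoxB (136), 193 in HoxC (174) and 233 in HoxD (232). The widest at 0 h spanned 6959 bp in HoxA, 6537 bp in HoxB, 4893 bp in HoxC and 3865 bp in HoxD, with heights of only 18, 69, 64 and 19. At 4 h the widest spanned 6343, 4356, 4461 and 3351 bp in the same order.

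Most H3K4me3 clusters of the windows held H3K27me3 as well. At 0 h this was so for 19 of 19 in HoxA, 7 of 9 in HoxB, 12 of 15 in HoxC and 11 of 14 in HoxD. The 49 of 57 made 86.0% (interval 74.2 to 93.7%), against 24.2 percent over the whole list. At 4 h the count was 49 of 55, or 89.1% (interval 77.8 to 95.9%), against 27.2 percent. Low H3K4me3 clusters account for most of these counts, so the share was also taken within classes of H3K4me3 height. Of the clusters from 11 to 19 in height at 0 h, 25 of 28 in the windows held H3K27me3, against 21.8% elsewhere. From 20 to 49 all 11 did, against 35.6%, and from 50 to 99 all 8 did, against 49.0%. Of the 10 clusters of height 100 or more, 5 did, against 13.7%, with a wide interval of 18.7 to 81.3%. None of these shares is corrected for the density of H3K27me3 positions, which at 0 h was 14.5 times that of the whole list. How much of the shares comes from that density was not tested.

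Seen from the other mark, HoxA had the highest share. There 54 of 101 H3K27me3 positions at 0 h, or 53.5% (interval 43.3 to 63.5%), lay inside an H3K4me3 cluster. The share was 10.8% in HoxB (interval 6.73 to 16.2%), 10.7% in HoxC (interval 7.08 to 15.2%) and 23.2% in HoxD (interval 15.1 to 32.9%), and the HoxA interval met none of these. Outside the windows it was 14.8%. H3K4me3 clusters also covered more of HoxA, 17.0% of its length at 0 h against 6.65% in HoxB, 7.25% in HoxC, 7.02% in HoxD and 2.59% outside the windows. Relative to that coverage the share was 3.15 times in HoxA and 3.30 times in HoxD, whereas it was 1.63 times in HoxB, 1.47 times in HoxC and 5.71 times outside the windows. At 4 h the HoxA share was 37.6%, with 6.77% in HoxB, 6.62% in HoxC and 11.8% in HoxD. Outside the windows it was 10.7%, which lay inside the HoxD interval of 6.76 to 18.7%. Relative to coverage at 4 h the share was 2.21 times in HoxA and 2.03 times in HoxD. It was 1.28 times in HoxB, 1.02 times in HoxC and 4.41 times outside the windows. H3K27me3 positions inside H3K4me3 clusters were the taller ones, with a median height of 33 against 14 outside them at 0 h and 46 against 16 at 4 h. The same held outside the windows, at 25 against 11 and 31 against 12.

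Among H3K4me3 clusters of height 100 or more, H3K27me3 above 16 was listed only in HoxA at 0 h. At 190.5 and 199.3 kb HoxA had H3K4me3 clusters of height 112 and 134 at 0 h, with H3K27me3 positions of up to 53 and 50 inside them. At 4 h their heights were 107 and 122, and H3K27me3 inside them reached 75 and 66. No Pol II position was listed in either at any time. In the other 8 clusters of height 100 or more at 0 h, H3K27me3 was either not listed or reached at most 16. Among these was the HoxC cluster at 48.3 kb, of height 193 and 174 at 4 h, which held neither H3K27me3 nor, in the 2 h and 4 h lists, Pol II.

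**Figure D4:**
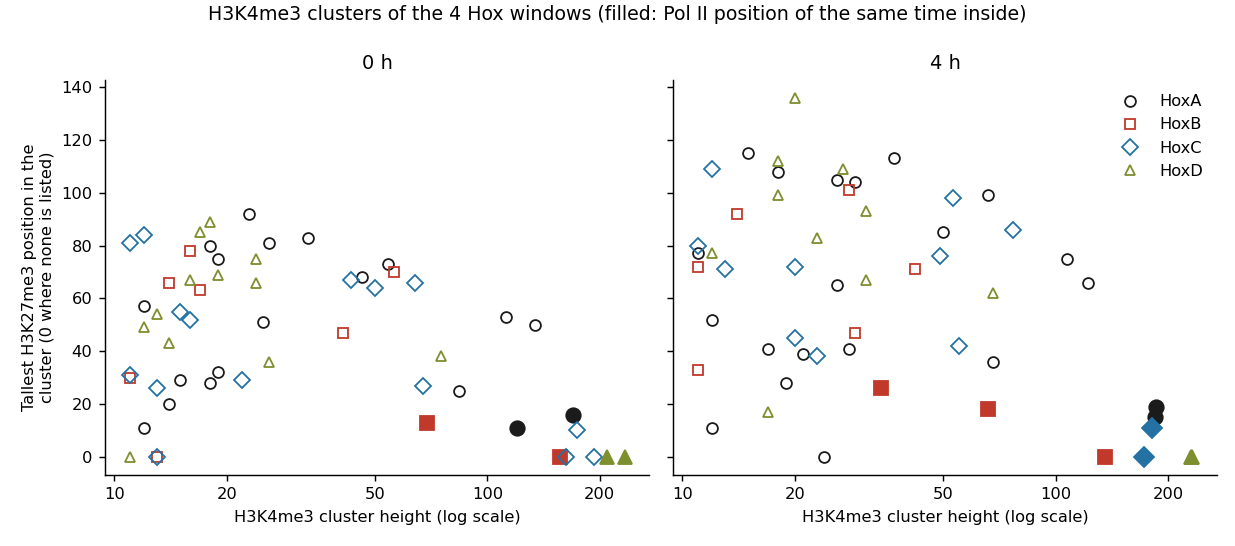
Tallest H3K27me3 position inside each H3K4me3 cluster of the 4 windows (y axis, height, 0 where none is listed) against the height of the cluster (x axis, log scale), at 0 h and 4 h; filled symbols hold a Pol II position of the same time. Open symbols with low H3K4me3 and tall H3K27me3 fill the left, filled symbols lie low on the right, and 2 open HoxA circles at H3K4me3 112 and 134 carry H3K27me3 of 53 and 50; HoxC could not be filled at 0 h.

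H3K4me3 changed little between the times. Of the 57 clusters, 7 had no overlapping cluster at 4 h, or 12.3% (interval 5.08 to 23.7%), against 13.1 percent in the whole list, and none of the 7 was taller than 13. In HoxA all 19 were kept. In return 2 of 55 clusters at 4 h, both of height 11, had none at 0 h, or 3.64% against 5.07 percent. The 50 kept clusters had a median log2 ratio of 0.06 (interval -0.03 to 0.17), with 0 for the whole list. Of these, 6 (12%) were at least 1.5 times taller, beside 3.29 percent, and 2 (4%) at least 1.5 times lower, beside 9.17 percent. The one tall cluster among the 6 lay at 136.2 kb in HoxA and went from 120 to 185, and the other 5 had heights of 11 to 19 at 0 h. In HoxB the cluster at 226.1 kb, of height 69, was listed at 4 h as separate clusters of 34 and 66. It was paired with the lower piece and is 1 of the 2 counted as lower. A total of 5 of the 7 kept HoxB clusters were lower at 4 h.

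Pol II was scarce. There were 13 positions at 0 h, 11 at 2 h and 10 at 4 h in the 4 windows, or 0.323, 0.266 and 0.240 times the whole-list density. The order of the times depended on the height minimum. Above the median height of each list the multiples were 0.322, 0.487 and 0.433, and from a height of 12 they were 0.234, 0.306 and 0.241. Tiles are uneven in Pol II, and by number the windows were near the middle: between 49.1% and 63.0% of tiles held fewer positions than HoxA, HoxB and HoxD at each time and HoxC at 2 and 4 h. HoxC could not be read at 0 h. The last Pol II position on chromosome 15 in that list is at 100323245, before the window begins, whereas the 2 h and 4 h lists run past its end. Without HoxC the multiples were 0.439, 0.295 and 0.228. The other 0 h multiples count the unreadable HoxC window as empty, and those under a height minimum were not computed without it. The place of 0 h in the order under a height minimum is therefore uncertain.

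Most Pol II sites lay inside H3K4me3 clusters. Of the positions at 0 h, 10 of 13 lay inside an H3K4me3 cluster of 0 h, against 37.4 percent in the whole list. With the 4 h clusters it was 10 of 11 at 2 h (35.8 percent) and 9 of 10 at 4 h (35.3 percent). HoxA had its main sites at 171.6 kb, with heights of 58, 89 and 70 at 0, 2 and 4 h, and at 138.1 kb, with 19, 37 and 54. Both lie before the H3K27me3 domain. The site at 138.1 kb falls in the cluster whose H3K4me3 height went from 120 to 185. Weak positions at 139.1 and 139.8 kb, of height 10 and 11, were listed at 0 h only.

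HoxB had 5 Pol II sites, which lay between 227.9 and 236.2 kb. The site at 231.0 kb had heights of 17, 38 and 38, and that at 234.0 kb had 15, 26 and 30. At 234.7 and 236.2 kb heights of 11 and 9 were followed by 38 and 23 at 2 h and no listing at 4 h. The site at 227.9 kb was listed from 2 h on, with 35 and 20. The sites at 227.9 and 231.0 kb lie within the last part of the HoxB domain of 0 h, where no H3K27me3 height within 5 kb exceeded 13 at that time. Those further on stand in a stretch of 24.6 kb without H3K27me3 at 0 h, from 231.3 to 255.9 kb, which was 25.9 kb long at 4 h. No other stretch without the mark in HoxB was as long. The H3K4me3 cluster of height 156 lies within it.

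HoxD had sites on either side of its domain, at 79.9 kb with heights of 44, 87 and 61 and at 326.7 kb with 31, 59 and 52. The H3K4me3 clusters there had heights of 209 and 233, and no H3K27me3 position lay within them at either time. They fell in stretches without H3K27me3 of 133 and 118 kb at 0 h, and of 94.6 and 74.6 kb at 4 h. Weak 0 h positions at 7.2, 13.8 and 15.1 kb, of height 9 or 10, had no later partner. In HoxC the readable sites lay at 491.3 kb, with 48 at 2 h and 31 at 4 h, at 481.1 kb, with 11 at both, and at the window's first bases, with 34 at 4 h. The last site had a 2 h partner 26 bp away, outside the window. None of these falls inside the domain of 243 kb.

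Pol II heights at the shared sites of the windows were greater after stimulation. The windows are wider than the H3K27me3 domains and no site was given to a gene. Whether any of these sites belongs to a Hox gene is therefore not known here. Of the 13 positions at 0 h, 5 had no partner at 2 h, beside 48.2 percent in the whole list. All 8 that were shared were taller at 2 h, beside 72 percent in the whole list, with a median ratio of 1.96 against 1.44. Of the 8, 3 stood at least 1.5 times above the whole-list median, beside 26.5 percent, and all 3 were in HoxB. All 6 sites listed at all 3 times were also taller at 4 h than at 0 h, beside 76.2 percent, with a median ratio of 1.83 against 1.44. The lowest listed Pol II height was 9 at 0 h, 10 at 2 h and 11 at 4 h. A shared 0 h position of height 9 could thus only be taller later, which adds to the shares of taller positions. The HoxA site at 171.6 kb and both HoxD sites were tallest at 2 h, the sites at 138.1 kb in HoxA and 234.0 kb in HoxB at 4 h, and the HoxB site at 231.0 kb was level at 38. At so few sites no difference from the whole list can be read.

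**Figure D5:**
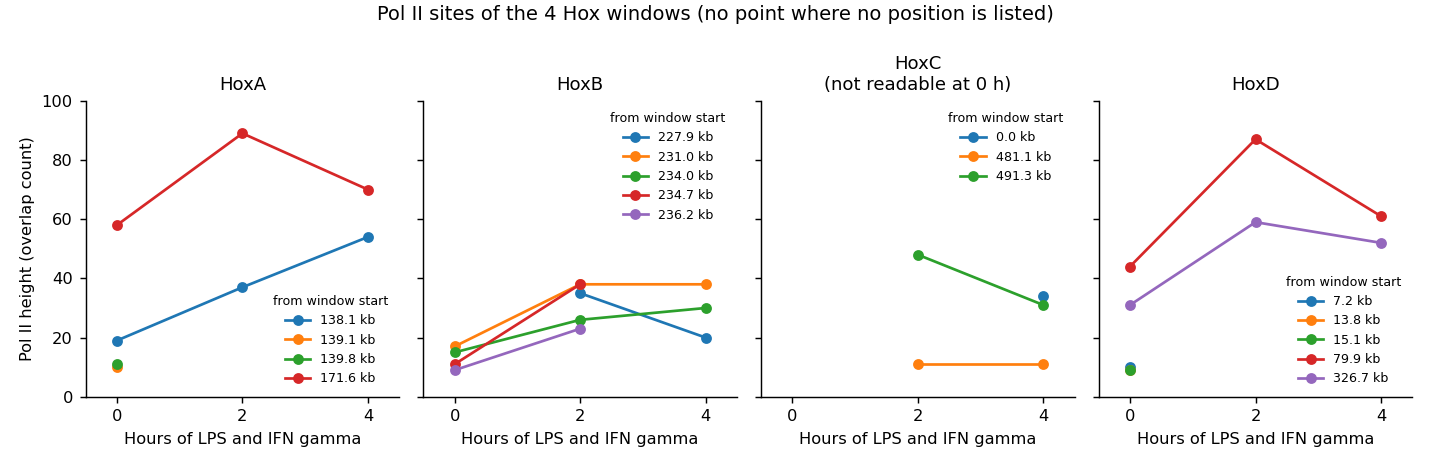
Pol II height (y axis, overlap count) at each site of the 4 windows against hours of stimulation (x axis); each line is 1 site, named by its distance from the window start, and no point is drawn where no position is listed. The HoxA site at 171.6 kb and both main HoxD sites peak at 2 h, while the HoxA site at 138.1 kb goes from 19 to 37 and 54.

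Pol II and heavy H3K27me3 stayed apart. Of the 235 H3K27me3 positions of height 20 or more at 0 h, 1 lay within 5 kb of a Pol II position of any time, or 0.426% (interval 0.0108 to 2.35%), against 19.6 percent over the whole list. At 4 h it was 4 of 345, or 1.16% (interval 0.317 to 2.94%), against 17 percent. HoxC gave 84 of the 235 and 133 of the 345, and there only Pol II of 2 and 4 h could be read. In the other windows the count was 1 of 58 in HoxA, 0 of 49 in HoxB and 0 of 44 in HoxD at 0 h. At 4 h it was 2 of 61, 1 of 89 and 0 of 62 in the same order. None of these shares is corrected for the low density of Pol II positions in the windows. That density was 0.439 times that of the whole list at 0 h (without HoxC), 0.266 times at 2 h and 0.240 times at 4 h. How much of the gap to the whole list comes from that density was not tested. Within 5 kb of a Pol II position of the windows no H3K27me3 height exceeded 20 at 0 h or 30 at 4 h. The Hox positions belong to a handful of domains, so they are far fewer independent places than their number.

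Pol II was listed in 6 of 57 H3K4me3 clusters at 0 h, or 6 of 42 (14.3%, interval 5.43 to 28.5%) without HoxC, against 60.2 percent over the whole list. At 4 h it was listed in 9 of 55 (16.4%, interval 7.77 to 28.8%), against 63.5 percent. This gap went with H3K27me3 and with low H3K4me3. Among clusters that held H3K27me3, Pol II was present in 5 of 49 at 4 h (10.2%, interval 3.40 to 22.2%), against 27.02% elsewhere, and their median H3K4me3 height was 26 against 48 elsewhere. In classes of H3K4me3 height the windows could not be told from the rest. Of such clusters from 11 to 19 in height at 4 h, 0 of 17 held Pol II (interval 0 to 19.5%) against 7.17% elsewhere. From 20 to 49 it was 1 of 19 (interval 0.133 to 26.0%) against 10.6%, and at 100 or more it was 3 of 5 against 68.3%.

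Jmjd3 was listed at 3 places in the windows, 2 in HoxB, 1 in HoxD and none in HoxA or HoxC. This was 0.943 times the density of its list of 4398. All 3 had heights of 9 or 10, at the bottom of a list whose lowest height is 9 and whose median is 10. All 3 lay in an H3K4me3 cluster of 4 h, as did 83.8 percent of the whole list. None lay within 500 bp of an H3K27me3 position. The share of the whole Jmjd3 list that does was not counted, so nothing is read from these 3.

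The HoxB position at chr11:96127689, of height 10, lay 169 bp from the Pol II site that was listed from 2 h on, and 794 bp from the nearest H3K27me3 position at 0 h. It falls in the H3K4me3 cluster of height 69 that was listed in pieces at 4 h. The other HoxB position, chr11:96134099, of height 9, lay 4 bp from a 0 h Pol II position and 2811 bp from the nearest H3K27me3. Its H3K4me3 cluster had heights of 156 and 136. In HoxD the position at chr2:74626703, also of height 9, coincided with the 0 h Pol II position of the 326.7 kb site. Its nearest H3K27me3 position was 23910 bp away at 0 h and 2106 bp away at 4 h. The HoxB position at 227.7 kb fell near the end of the HoxB domain of 0 h, and no Jmjd3 position fell in the domains of HoxA, HoxC and HoxD. A library with a single time point shows only where Jmjd3 was listed at 2 h.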

How the data were processed

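Chromatin from 500000000 cells for Jmjd3 and 100000000 for each other antibody and time was sequenced as fragments of 200 to 300 bp, with over 10000000 unique tags per library, per the labels. The 8 deposited peak lists carry 1 value per peak, its overlap count. This signal was left by the authors as whole numbers, and no header or label records a scaling. H3K4me3 peaks are intervals and the others single positions, per the file headers. Per the submitters' processing notes the build is mm8. Aligner, caller and threshold: not given in the sources used here, and the same holds for any control library. Exact depth per library is unknown.

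Peaks were assigned to the 4 windows and counted with Python 3.11.15, numpy 2.4.6, pandas 2.3.3 and scipy 1.17.1, and figures were drawn with matplotlib 3.10.9. Single positions under 500 bp apart, and clusters sharing at least 1 bp, counted as shared. An H3K4me3 cluster held a position that lay within its bounds. Density is relative to a span of 2626 Mb covered by the lists. The counting was tested on simulated lists. Peaks named were, per window, the 3 tallest H3K27me3 and Pol II positions, the tallest and widest H3K4me3 clusters, all Jmjd3 positions and the longest H3K27me3 run, and over all windows the 3 largest and 3 smallest H3K27me3 height ratios among heights of 20 or more. Other clusters and sites, the classes of H3K4me3 height and the correction for H3K4me3 coverage were chosen after their values were seen. The windows and lists were chosen with earlier results of these data known. With 1 library per group, no test was made. Alternatives varied the height minimum, window bounds, sharing distance, list length, overlap and tile choice.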

Additional observations from a re-analysis of the deposited data

How the results depend on the processing

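No paired analysis was possible because each group holds 1 library and no result comes from a test. Nearly all values are counts, shares, lengths or multiples, which cannot change sign. The H3K27me3 height ratio relative to the whole list, which could, stayed positive on the log2 scale. Some orders between times turned. The H3K27me3 multiple was 14.5 at 0 h and 15.1 at 4 h with lists of equal length. The Pol II multiple was highest at 2 h under both height minimums, with the unreadable HoxC window counted as empty at 0 h. The longest runs in HoxA, HoxB and HoxD were shorter at 4 h with 1 kb and longer with 2 or 5 kb. In HoxC the longest run was shorter at 4 h with 2 kb only. Keeping only peaks above the median height of their list, the H3K27me3 multiple was 22.6 at 0 h and 18.8 at 4 h, the Pol II multiple 0.487 at 2 h and 0.433 at 4 h, the H3K4me3 clusters 11 and 10, of which 36.4% and 40% held H3K27me3, the share of H3K27me3 positions kept 87.9%, and Jmjd3 positions 0. With a minimum of 12 in every list, Jmjd3 positions were again 0, 89.7% of H3K27me3 positions were kept, and 38.9% of those at 4 h had no 0 h partner. Those shares were 94.2% and 21.8% when positions up to 1 kb apart were shared, and 69.3% and 45.8% at 250 bp. With lists of equal length they were 78.7% and 24.6%. The cause of these shifts was not tested. No whole-list share was computed under these settings, so these shares cannot be set against the whole-list shares given above. Cutting the windows by 50 kb at both ends moved none of the 14 main values beyond its error. Leaving out HoxC, and weighting the height ratio to 0 h height (0.08 on the log2 scale above the whole list, 0.07 unweighted), were added after seeing the data and moved no main value. Depth limits what low peaks can show, since exact tag numbers are unknown.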
